A study of Arabidopsis thaliana with 4 samples.

Results

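The 10 genes described here make the galactolipids and the sulfolipid of Arabidopsis thaliana or break down phospholipids to supply them. Earlier results of these data were known when they were chosen, which was by locus and not by a measured value. They are SQD1, SQD2, MGD1, MGD2, MGD3, DGD1, DGD2, NPC4, NPC5 and PLDP2. Each had 1 probe among the 21500 gene probes of the array, and all 10 were among the 18854 genes kept for comparison. Every spot of the 10 genes was free of outlier flags and below saturation.

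RNA came from rosette leaves of 3-week-old Col-0 plants. Transformants OX7 and OX17 were each compared with untransformed wild type of the same ecotype. Both carry TaSK5, a GSK3/Shaggy-like kinase of wheat, under the 35S promoter of a plant virus. Each is 1 plant of the first transgenic generation, with no treatment, and nothing in the labels says how many wild-type plants were used or whether 1 wild-type RNA served both. Transformant and wild-type RNA were hybridised together to 2-colour Agilent arrays, once with the transformant in Cy5 (replicate 1) and once with the dyes exchanged (replicate 2), so both arrays of a transformant count as 1 replicate and n = 2 transformants. The log2 ratio is that of transformant over wild type after background correction and loess normalisation, so a negative value means less signal in the transformant.

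Galactolipids are the main lipids of chloroplast membranes. MGD enzymes add galactose to diacylglycerol to make monogalactosyldiacylglycerol, and DGD enzymes add a further galactose to make digalactosyldiacylglycerol. The sulfolipid is made when SQD1 forms UDP-sulfoquinovose and SQD2 transfers the sulfoquinovose to diacylglycerol. MGD1 and DGD1 make the bulk of leaf galactolipids, whereas MGD2, MGD3 and DGD2 are known for their induction by phosphate starvation, when phospholipids are replaced by lipids without phosphorus. SQD1, SQD2, NPC4, NPC5 and PLDP2 are induced by it as well. NPC4 and NPC5 are phospholipases C that yield diacylglycerol, and PLDP2 is a phospholipase D that yields phosphatidic acid.

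The 2 arrays of a transformant differed by a median of 0.15 in log2 ratio across genes for OX7 and by 0.21 for OX17. The SD of mean ratios over all genes was 0.24 for OX7 and 0.50 for OX17. Leaf markers were present, since all 7 probes of a mesophyll list (photosynthetic genes such as RBCS1A and LHCB2.1) were well above background in all 8 channels. Of markers of other tissues and cells, 2 of 5 root hair and root probes, 3 of 5 floral and pollen probes and 4 of 4 guard cell probes were as well. In whole leaves, fewer cells of a type and less RNA per cell cannot be told apart.

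Both sulfolipid genes and both phosphate-responsive MGDG synthase genes had less signal in TaSK5 plants than in wild type on all 4 arrays. They were SQD1, SQD2, MGD2 and MGD3, with means between 1.22-fold and 1.53-fold lower. Of all genes kept, 12.0% were lower on all 4 arrays and 12.1% were higher, against 4 and 0 of the 10. MGD3 entered the comparison only through its wild-type channels, where it is brighter, so its place among the lower genes is a description and lends the count no support. No member passed the test: limma on the 2 transformant means gave Benjamini-Hochberg adjusted p from 0.846 to 0.997 for the 10, and 0 of the 18854 genes (0%) passed, the smallest adjusted p being 0.846. At an unadjusted limma p under 0.05 there were 3 members (SQD1, SQD2 and MGD3) and 825 genes (4.38%), where 942.7 genes would come with no effect. Of those 3, MGD3 again was kept only through wild type. The median log2 ratio was -0.15 over the 10 members, -0.28 over the 7 synthase genes, 0.093 over the 3 phospholipase genes and -0.0052 over all genes.

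**Figure D1:**
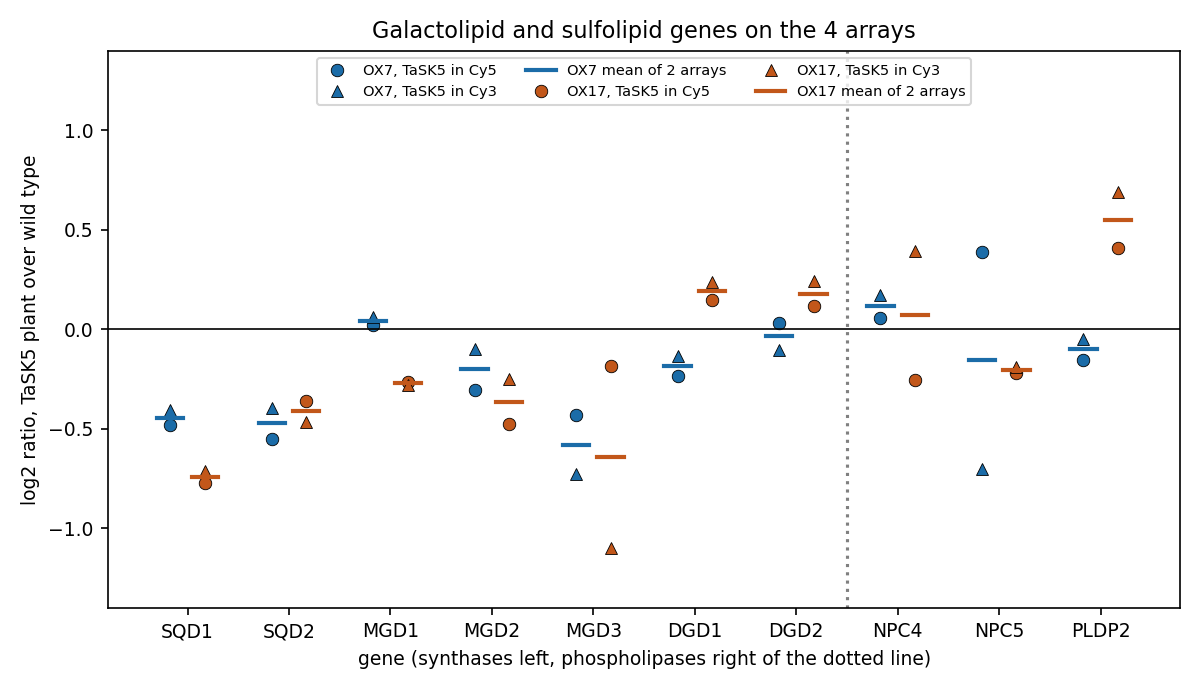
Log2 ratio of TaSK5 plant over wild type (y axis) for each of the 10 genes (x axis). Circles are arrays with the transformant in Cy5, triangles those with it in Cy3, and bars are the mean of both arrays of OX7 (blue) or OX17 (orange). SQD1, SQD2, MGD2 and MGD3 lie below 0 on all 4 arrays, and the arrays of MGD3 in OX17 and of NPC5 in OX7 lie far apart.

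SQD1 (AT4G33030), which opens sulfolipid synthesis, had log2 ratios of -0.48 and -0.41 on the arrays of OX7 and of -0.77 and -0.71 on those of OX17. All 4 values were negative, the OX17 arrays were lower than the OX7 arrays without overlap, and dye-swapped arrays differed by only 0.076 in OX7 and 0.060 in OX17. The mean was -0.59 ± 0.21 (SD, n = 2 transformants), or 1.51-fold lower signal (limma unadjusted p = 0.0205, adjusted p = 0.846). SQD1 lay at percentile 2.17 of all genes, at 1.53 among those of OX7 and at 4.98 among those of OX17. The arrays of the plants overlapped with scaling between arrays and with median centring. The difference of OX17 minus OX7 means was then 0.053 and -0.063.

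SQD2 (AT5G01220), the sulfoquinovosyltransferase, had log2 ratios of -0.55 and -0.39 in OX7 and of -0.36 and -0.46 in OX17. Here the 2 transformants overlapped. The mean was -0.44 ± 0.042 (SD, n = 2), or 1.36-fold lower (limma unadjusted p = 0.0223, adjusted p = 0.846), at percentile 4.33 of all genes. SQD2 lay lower among the genes of OX7 (percentile 1.23) than among those of OX17 (percentile 11.4), and the plants' means were -0.47 and -0.41.

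The sulfolipid pathway also needs UGP3 (AT3G56040), a plastid enzyme that makes the UDP-glucose used by SQD1; it was named after its values were seen. Its log2 ratios were 0.21 and 0.16 in OX7 and -0.27 and -0.36 in OX17. Unlike SQD1 and SQD2, it was on opposite sides of 0 in the 2 transformants.

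Among the MGDG synthases, MGD3 (AT2G11810, MGDC in the reference gene table) had the lowest mean of the 10 genes. Its log2 ratios were -0.43 and -0.73 in OX7 and -0.19 and -1.10 in OX17. All 4 were negative, but the OX17 arrays were 0.92 apart, against a median gap of 0.21 over all genes of OX17. The mean was -0.61 ± 0.045 (SD, n = 2), or 1.53-fold lower (limma unadjusted p = 0.00923, adjusted p = 0.846), at percentile 1.99. This SD leaves out the gap between arrays, which was wider than the gap between transformants.

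MGD3 was also the dimmest member. Spot intensity after subtraction of the local background ranged from 20.6 to 137 over its 8 channels, at 1.43 to 3.87 times background, and 3 of the 4 TaSK5 spots (not OX7 replicate 1) but 4 of the 4 wild-type spots were well above background. The size of its ratio therefore turned on the processing: -0.40 with no background subtraction, -1.02 with a smaller offset and -1.17 with Agilent's processed ratios. It was -0.38 without OX17 replicate 2.

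MGD2 (AT5G20410), the other MGDG synthase of the outer envelope, had log2 ratios of -0.31 and -0.097 in OX7 and of -0.48 and -0.25 in OX17. On the arrays of either transformant the value with the transformant in Cy5 was the lower one, and the 2 transformants overlapped. The mean was -0.28 ± 0.11 (SD, n = 2), or 1.22-fold lower (limma adjusted p = 0.846).

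MGD1 (AT4G31780), the inner envelope enzyme of bulk MGDG synthesis, did not go with the other synthases of its family in OX7. Its log2 ratios were 0.024 and 0.063 in OX7 and -0.26 and -0.28 in OX17. The dye-swapped arrays agreed within 0.039 and 0.016, and the 2 transformants did not overlap. The mean of -0.11 ± 0.22 (SD, n = 2) lies between those of the 2 plants (limma adjusted p = 0.868).

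The DGDG synthases were not lower on all 4 arrays. DGD1 (AT3G11670), which makes most leaf DGDG, had log2 ratios of -0.24 and -0.14 in OX7 and of 0.15 and 0.24 in OX17, on opposite sides of 0 without overlap. Its mean was 0.0032 ± 0.27 (SD, n = 2; limma adjusted p = 0.997). DGD2 (AT4G00550), the phosphate-responsive DGDG synthase, had log2 ratios of 0.031 and -0.10 in OX7 and of 0.12 and 0.24 in OX17, with a mean of 0.072 ± 0.15 (limma adjusted p = 0.896). The OX17 arrays of DGD2 were above those of OX7 too, by a difference of means of 0.22.

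Of the phospholipases, PLDP2 (AT3G05630) differed most between the plants. Its log2 ratios were -0.15 and -0.047 in OX7 and 0.41 and 0.69 in OX17, so it was near wild type in OX7 and 1.46-fold higher in OX17. The mean was 0.22 ± 0.46 (SD, n = 2; limma adjusted p = 0.852). PLDP2 was dim as well, at 2.16 to 6.99 times background, and its OX17 mean of 0.55 was 0.40 with no background subtraction and 0.84 with Agilent's processed ratios. The difference between the plants was 0.49 and 0.97 under these settings.

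NPC4 (AT3G03530) had log2 ratios of 0.057 and 0.17 in OX7 and of -0.25 and 0.39 in OX17. NPC5 (AT3G03540) had 0.39 and -0.70 in OX7 and -0.22 and -0.19 in OX17. In each gene 1 pair of dye-swapped arrays gave opposite signs, 0.65 apart for NPC4 in OX17 and 1.09 apart for NPC5 in OX7, so the means of 0.093 ± 0.032 and -0.18 ± 0.035 (SD, n = 2; limma adjusted p = 0.862 and 0.846) have no settled direction.

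Both phospholipase C genes were dim, at 1.67 to 3.73 times background for NPC4 and 3.19 to 5.64 times for NPC5. NPC3, NPC4 and NPC5 follow each other directly in the reference gene table and are related. No probe sequence was used here, so signal of 1 transcript at another's probe was not tested.

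**Figure D2:**
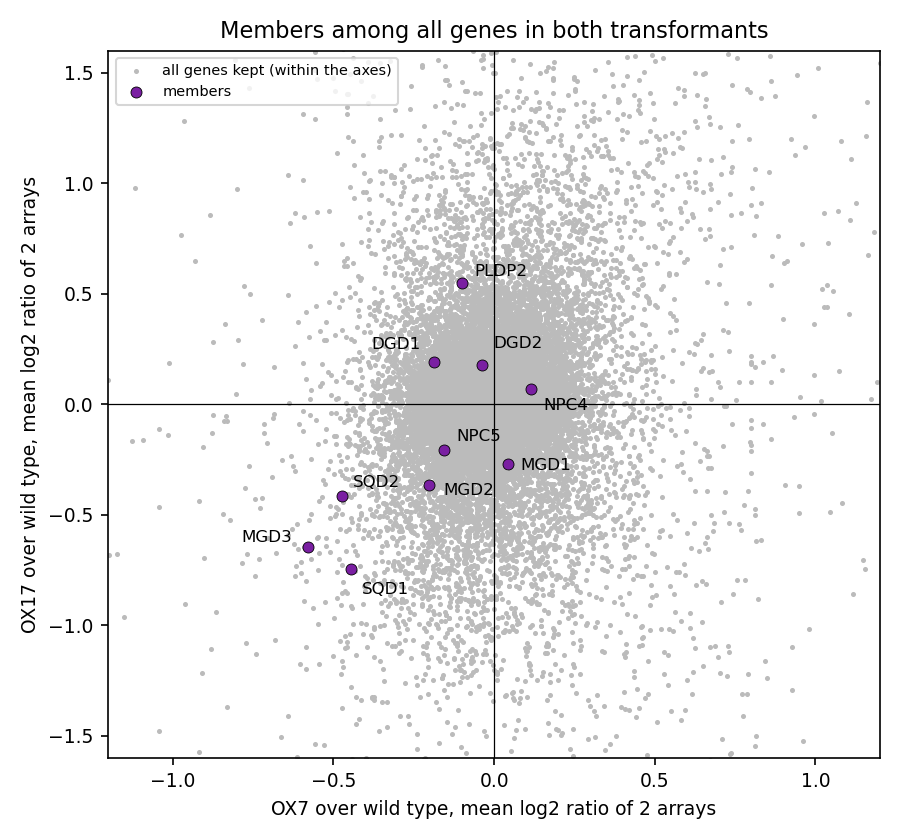
Mean log2 ratio of both arrays in OX7 (x axis) against that in OX17 (y axis), for the 10 members (purple) and all genes kept that lie within the axes (grey). MGD3, SQD1 and SQD2 lie at the lower left, with means from -0.58 to -0.45 in OX7 and from -0.74 to -0.41 in OX17, and PLDP2 lies at 0.55 in OX17 with -0.10 in OX7. Wild-type RNA may be shared between the axes.

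The 4 genes lower on all 4 arrays were, by that definition, lower on both arrays of each transformant taken alone. In OX7, 6 members were lower and 2 higher on both arrays, where 30.8% and 29.9% of all genes were. These were the 4 genes with DGD1 and PLDP2 below 0, and MGD1 and NPC4 above it. In OX17, 6 were lower and 3 higher on both arrays, where 32.8% and 31.0% of all genes were: the 4 genes with MGD1 and NPC5 below 0, and DGD1, DGD2 and PLDP2 above it. No member was 2-fold different on both arrays of a plant, except that with Agilent's processed ratios MGD3 was, at -1.12 and -1.44 in OX17. Among all genes, as reported, 0.488% were so upwards and 0.0955% downwards in OX7, and 2.59% and 2.02% in OX17.

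The arrays of OX7 and OX17, as reported, did not overlap for 5 members. OX17 was higher for DGD1, DGD2 and PLDP2 and lower for SQD1 and MGD1. Of all genes, 25.0% lay apart with OX17 higher and a further 25.0% with OX17 lower, so the members were near the share of all genes. Opposite signs on the arrays of the 2 plants were seen for DGD1 and PLDP2 (OX17 higher, as for 7.81% of genes) and for MGD1 (OX17 lower, as for 9.12%). These 3 sign patterns held under 6 of 7 other ways of processing and not with median centring in place of loess. With median centring the difference of means was still 0.60 for DGD1 and 0.61 for PLDP2, but -0.087 for MGD1. A difference between transformants has no test here, since each is 1 plant.

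A ratio can differ between plants through either channel, so each channel's level was compared between the array pairs within a dye orientation. A shift common to both channels of a spot between array pairs would alter such a split, and was not tested. SQD1 had log2 signals of 10.70 and 10.58 in OX7 and of 9.98 and 10.04 in OX17, with wild-type signals of 11.19 and 10.99 beside OX7 and 10.76 and 10.76 beside OX17. Both channels were lower on the OX17 arrays, the transformant by 0.63 and the wild type by 0.33. The same held for SQD2, by 0.40 in the transformant channel and 0.46 in the wild-type channel.

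DGD1 showed another pattern. The transformant channel had log2 signals of 10.96 and 11.05 in OX7 and of 10.96 and 11.06 in OX17, a mean difference of 0.0073. Its wild-type channel had 11.20 and 11.18 beside OX7 but 10.82 and 10.82 beside OX17, a difference of -0.37. By these levels, the opposite signs of the DGD1 ratio lay in the wild-type channel, with nearly level transformant signals. With quantile normalisation of single channels, an alternative chosen after seeing the data, the differences were -0.019 and -0.39.

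PLDP2 differed in both channels and in opposite directions. The transformant signal was 7.48 and 7.63 in OX7 and 7.82 and 7.95 in OX17, higher by 0.33. The wild-type signal was 7.64 and 7.67 beside OX7 and 7.41 and 7.26 beside OX17, lower by 0.32. By these levels, the PLDP2 difference between plants of 0.65 was shared about equally by the 2 channels.

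For MGD1 the transformant channel held most of the difference, at -0.43 against -0.12 for wild type. DGD2 was higher on the OX17 arrays in both channels, by 0.39 in the transformant and 0.17 in wild type. Across the 10 genes, the wild-type channel was lower with OX17 in both dye orientations for 5 and higher for 2, where 32.9% and 33.1% of all genes were. The transformant channel was lower in OX17 for 5 and higher for 3, where 30.8% and 34.1% were. Over all genes, the median absolute difference was 0.20 between wild-type channels and 0.23 between transformant channels. Whether the wild-type RNA of the 2 array pairs differed in source was not tested.

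**Figure D3:**
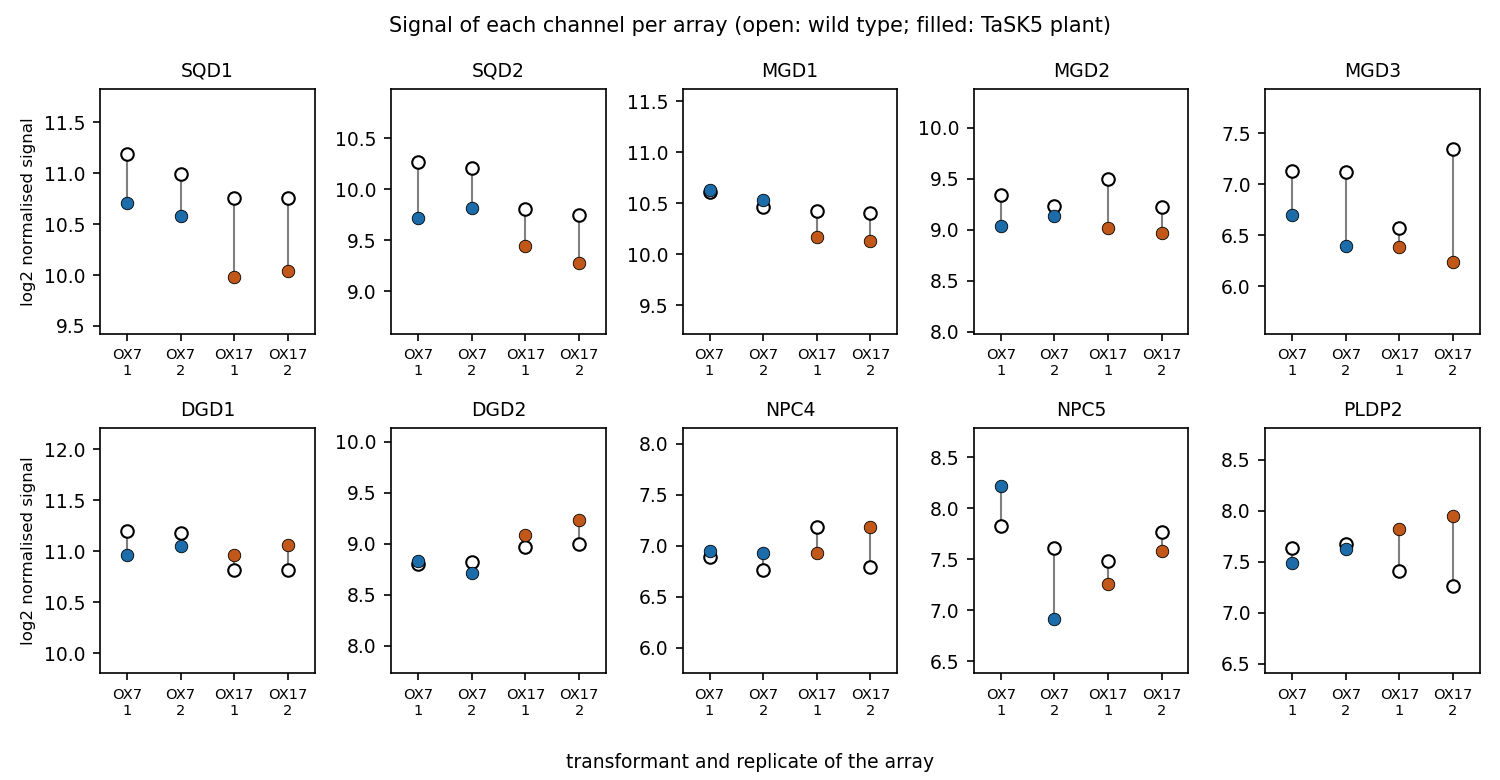
Log2 normalised signal (y axis, each panel spanning the same width around its own mean) in the wild-type channel (open) and the transformant channel (blue for OX7, orange for OX17) of each array (x axis: transformant and replicate). In DGD1 the transformant points stay between 10.96 and 11.06 while the wild-type points stand near 11.2 beside OX7 and at 10.82 beside OX17. Levels of different genes come from different probes and are not comparable.

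Related genes were set beside the members through 6 lists chosen from the pathway. Fatty acid desaturases, which introduce the double bonds of membrane lipids, had the lowest median of the 6 lists in OX17 but not in OX7. All 7 were lower on both OX17 arrays, where 32.8% of all genes were, and 3 were at least 2-fold lower on both, where 2.02% were. In OX7, 4 of 7 were lower on both arrays, where 30.8% were. Their median was -1.14 for OX17 and -0.068 for OX7. On all 4 arrays 4 of 7 (FAD4, FAD6, FAD7 and FAD8) were lower, where 12.0% of all genes were.

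FAD3 (AT2G29980), the omega-3 desaturase of the endoplasmic reticulum, had log2 ratios of 0.019 and -0.069 in OX7 and of -2.18 and -2.36 in OX17. Its OX17 mean of -2.27 was -1.65 with no background subtraction and -3.24 with Agilent's processed ratios. FAD2 (AT3G12120), the oleate desaturase there, had -0.10 and 0.19 in OX7 and -0.83 and -1.09 in OX17. Means over both plants were -1.15 ± 1.59 and -0.46 ± 0.71 (SD, n = 2; limma adjusted p = 0.846 for both). The plastid desaturase genes, named after their values were seen, had OX17 means of -2.09 (FAD5), -1.65 (FAD4), -1.14 (FAD8), -0.99 (FAD7) and -0.79 (FAD6). The difference between the plants was not tested.

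The list of plastid lipid supply and transport genes held 12 measured genes with a median of -0.070. On all 4 arrays 0 of them were higher and 1 was lower (CDS4, named after its values were seen). Over all genes, 12.1% were higher and 12.0% lower. ATS1 (AT1G32200), the plastid glycerol-3-phosphate acyltransferase, was lowest at -0.30 ± 0.56, with -0.026 and 0.22 in OX7 and -0.80 and -0.59 in OX17. TGD3 (AT1G65410, ABCI13 in the reference table), the ATPase of the lipid importer of the chloroplast, was highest at 0.093 ± 0.044. TGD3 had -0.13 and 0.38 in OX7 and -0.15 and 0.27 in OX17. Its sign thus changed with the dye orientation in both plants, and its SD leaves out that gap. Taken by plant, the list's median was -0.017 for OX7 and -0.16 for OX17.

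Other phospholipases and lipid phosphatases numbered 10 measured genes with a median of 0.014. On all 4 arrays 2 were higher (PLDDELTA and PLDALPHA1) and 0 were lower, where 12.1% and 12.0% of all genes were. With median centring 0 of the list were higher, and those lower on both OX7 arrays numbered 6 in place of 2. PLDDELTA (AT4G35790), a phospholipase D of the plasma membrane, was highest at 0.34 ± 0.25 and NPC3 (AT3G03520) lowest at -0.35 ± 0.37. In NPC3 the value came from OX7, with -0.59 and -0.62 there against 0.24 and -0.41 in OX17. Of 5 galactolipid lipase genes only DGL (AT1G05800, 0.050 ± 0.062) and HIL1 (AT4G13550, -0.048 ± 0.16) were bright enough to be kept.

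Glycerophosphodiester phosphodiesterases release glycerol phosphate from deacylated phospholipids. SRG3 (AT3G02040) was the only one of the 5 measured that was lower on all 4 arrays, where 12.0% of all genes were. Its log2 ratios were -1.01 and -1.07 in OX7 and -1.39 and -1.57 in OX17. The mean was -1.26 ± 0.31 (SD, n = 2; limma adjusted p = 0.846), or 2.39-fold lower. SRG3 was thus at least 2-fold lower on all 4 arrays, where 0.0318% of all genes were. With no background subtraction OX7 replicate 1 was at -0.97, short of 2-fold. The other 4 had means of 0.031 ± 0.0016 (GDPD2), -0.078 ± 0.27 (GDPD4), 0.13 ± 0.38 (GDPD5) and 0.19 ± 0.37 (GDPD6). Their median with SRG3 was 0.031. GDPD2 had -0.073 and 0.13 in OX7 and -0.15 and 0.22 in OX17. Its dye-swapped arrays thus had opposite signs in both plants, and its SD leaves out that gap.

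Among 13 measured regulators and markers of phosphate starvation, 4 were lower and 1 was higher on all 4 arrays. Of all genes, 12.0% were lower and 12.1% higher. The list's median was -0.098. SPX1 (AT5G20150), an inhibitor of the phosphate starvation factor PHR1 and itself induced by starvation, had log2 ratios of -0.79 and -1.05 in OX7 and of -2.20 and -1.95 in OX17. Its mean of -1.50 ± 0.82 (SD, n = 2; limma adjusted p = 0.846) was 2.82-fold lower. PHT1;4 (AT2G38940), a phosphate transporter, was highest at 0.28 ± 0.22, with 0.16 and 0.093 in OX7 and 0.48 and 0.39 in OX17. The other lower genes, named after their values were seen, had smaller means: PAP17 at -0.20, PHF1 at -0.15 and PHT1;1 at -0.098. With median centring in place of loess, 1 of the 13 was lower on all 4 arrays, so this count depended on the scaling. Transcript of PHR1 (AT4G28610), which acts on this programme and was named after its values were seen, had a mean of 0.073 ± 0.17.

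Of the 7 mesophyll marker probes, 4 had saturated spots (7 of 8 spots for RBCS1A and for RCA, 2 for GAPA and 1 for PSAD1), so their ratios are not given. Of the other 3, LHCB1.3 had means of 0.59 in OX7 and -0.77 in OX17, LHCB2.1 of 0.18 and 0.088, and CA1 of -0.32 and -2.31. Dye-swapped arrays of LHCB2.1 had opposite signs in both plants, at -0.20 and 0.57 in OX7 and -0.16 and 0.34 in OX17. Medians over both plants were -0.0086 for 3 root genes, -0.092 for 5 floral genes and -0.14 for 4 guard cell genes. On all 4 arrays none of these root, floral or guard cell genes was higher, where 12.1% of all genes were. Those lower numbered 0, 1 and 1, where 12.0% of all genes were. The part of leaf composition in the ratios of the 10 genes was not tested.

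**Figure D4:**
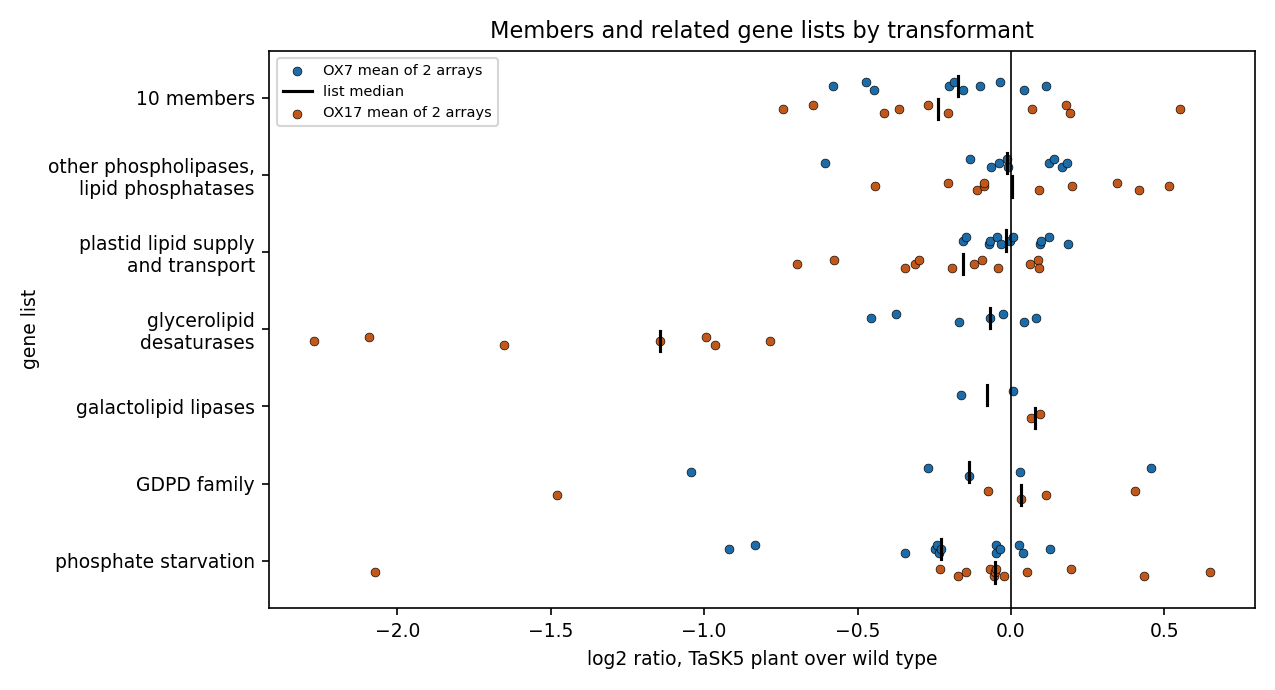
Mean log2 ratio of both arrays in OX7 (blue) and in OX17 (orange) for each gene (points) of the 10 members and 6 related lists, with list medians as black bars. All 7 desaturases lie between -2.27 and -0.79 in OX17 and between -0.46 and 0.081 in OX7. The leftmost gene of the phosphate starvation list in OX17 is SPX1, at -2.07.

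Means of SQD1, SQD2, MGD2 and MGD3 stayed below 0 under every alternative in which they were measured. Over the alternatives that used both plants they ranged from -0.76 to -0.57 for SQD1, from -0.57 to -0.40 for SQD2, from -0.37 to -0.23 for MGD2 and from -1.17 to -0.38 for MGD3. In OX7 alone SQD1 was at -0.45 and MGD2 at -0.20. Only the 7 other ways of processing could have brought SQD1, SQD2, MGD2 or MGD3 above 0. The remaining alternatives reused their ratios, which were negative on every array. Means of DGD1, DGD2, NPC4 and NPC5 took both signs, and those of MGD1 and PLDP2 did where OX7 was taken alone.

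**Figure D5:**
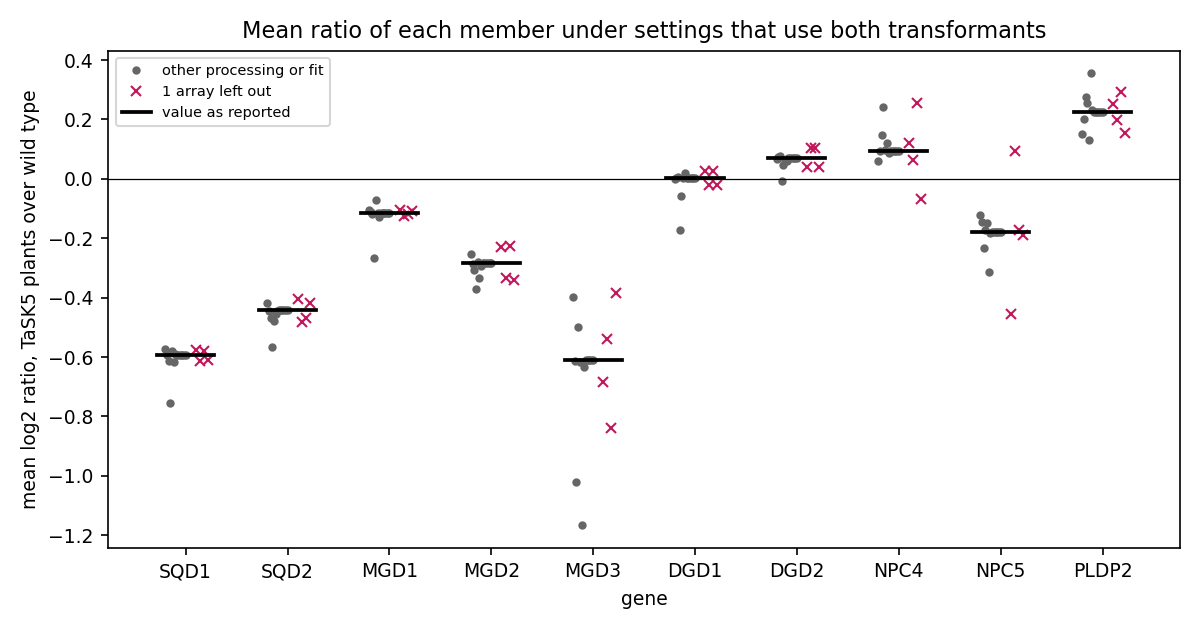
Mean log2 ratio of the 2 transformants (y axis) for each gene (x axis) as reported (bar), under other processing or fits (dots) and with 1 array left out (crosses). Settings that use 1 transformant alone are not drawn. SQD1 and SQD2 lie between -0.76 and -0.40, while MGD3 ranges from -1.17 to -0.38 and NPC5 from -0.45 to 0.093.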

How the data were processed

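Spot and local background intensities were deposited by the authors as scanner output of Agilent Feature Extraction 7.5.1, per the file headers. The same deposited files give the log10 ratio of Cy5 over Cy3 after the program's own dye normalisation. A table of log2 ratios was deposited too, for which limma is named per the submitters' processing notes; the sources used here do not state its remaining steps.

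Intensities were corrected by normexp (offset 50), normalised by loess within each array with 1075 control spots at weight 0, and turned to TaSK5 over wild type, with limma 3.58.1 in R 4.3.3. Outlier-flagged spots were left out. Genes well above background in all 4 TaSK5 or all 4 wild-type channels were kept. The offset pulls ratios of dim spots towards 0, and loess would hide a shift of most transcripts. Both arrays of each plant were averaged, and the 2 plant means were tested against 0 (lmFit and eBayes, two-sided, Benjamini-Hochberg over 18854 genes, threshold 0.05, 1 residual and 2.00 prior degrees of freedom). With 2 plants the p-values measure only the spread between these plants, drawn by eBayes towards that of all genes. The number of arrays limits precision. The test was run on simulated data too, but no outcome of that run is given here, so it lends the results no support.

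Channel levels used loess and Aquantile normalisation. Lists are described by counts and medians beside all genes, with no test. All members are named; from each list the highest and lowest mean and all glycerophosphodiester phosphodiesterases. The members and lists were chosen with earlier results of these data known. Of 21500 loci, 21191 matched the TAIR10.1 gene table, used for names. Coordinates are left out because the probes' build is unnamed, and member and probe sequences were not used here. Alternatives covered background, normalisation, filters, fits and each array left out.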

Additional observations from a re-analysis of the deposited data

Results flagged for a closer look

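Among the 10 genes, 3 had ratios on opposite sides of 0 in the 2 plants, with every array of OX7 on one side and every array of OX17 on the other. The difference of OX17 minus OX7 was 0.65 for PLDP2, 0.38 for DGD1 and -0.31 for MGD1. None of these differences was tested, because each transformant is 1 plant, and the opposite sides were not kept by any of the 3 once loess was replaced by median centring. The differences themselves were then 0.61 for PLDP2, 0.60 for DGD1 and -0.087 for MGD1. That of PLDP2, a dim gene, was from 0.49 to 0.97 under the 7 other ways of processing. By channel levels, the DGD1 difference lay in the wild-type channel (-0.37, against 0.0073 in the transformant channel). That of PLDP2 lay in both channels and that of MGD1 mainly in the transformant channel.

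UGP3, GDPD4 and GDPD5, which are related genes, met the same description, also untested. The difference was -0.50 for UGP3, 0.38 for GDPD4 and 0.54 for GDPD5. Opposite sides of 0 were kept under all 7 other ways of processing for GDPD5, and under all but median centring for UGP3 and GDPD4.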

How the results depend on the processing

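No member passed limma under any alternative in which a test could be made (0 of 10 as reported), with adjusted p from 0.0875 to 1.00. SQD1, SQD2, MGD2 and MGD3 were lower on all arrays under the 7 other ways of processing. The remaining alternatives (filters, flagged spots kept, fits, arrays left out, 1 plant alone) reused the same ratios. Those settings could not turn these genes and lend the direction no support. The filter for signal well above background in every channel removed MGD3. Members higher on all arrays used numbered 0 as reported, 0 to 1 with 1 array left out, 2 in OX7 alone and 3 in OX17 alone, which use fewer arrays. The members' median log2 ratio of -0.15 was -0.22 with median centring, -0.21 with Agilent's processed ratio, -0.24 in OX17 alone and from -0.17 to -0.073 with 1 array left out.

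Of 189 member means under alternatives, 177 kept their sign, but part of these could not change. Other filters, flagged spots kept and other fits gave the same means as reported. DGD1 turned to -0.00075 with no background subtraction, -0.17 with median centring, -0.058 with scaling between arrays and -0.19 in OX7 alone, and ranged from -0.022 to 0.028 with 1 array left out. DGD2 turned to -0.0066 with median centring and -0.036 in OX7 alone, MGD1 to 0.043 and PLDP2 to -0.10 in OX7 alone. With 1 array left out, NPC4 ranged from -0.069 to 0.25 and NPC5 from -0.45 to 0.093. The cause was not tested.

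The replicate number of an array gives its dye orientation, not a pairing of plants. Signed differences between dye-swapped arrays (replicate 1 minus replicate 2) of OX7 and of OX17 correlated across genes with r = 0.56. Counting the 4 arrays as independent, 79 of 18854 genes passed with no replicate block and 1 with the replicate block, and 0 members passed in both. With the transformant as a random block, 48 genes and 0 members passed. Signal near background limits MGD3, NPC4, NPC5 and PLDP2.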
